A study of Mus musculus with 12 samples.

Results

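Noradrenaline and adrenaline act through adrenergic receptors, and the genes described here encode 2 of these receptors and 3 enzymes that make or break down catecholamines. The genes were listed by symbol, and each was looked up among the transcript clusters of the array, a cluster being a set of probes for 1 transcribed stretch of the genome. Of 9 listed genes, 5 were found, each with 1 cluster, out of 21789 clusters with 1 gene symbol and 35556 clusters in all. These are Adra1b, Adra2c, Th, Ddc and Maoa. The other 4 listed genes, all receptors, are not analysed here.

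Tissue of the septum was taken from 6 lactating female mice on postpartum days 6 to 8 and from 6 virgin females, all about 70 days old. All 12 mice came from a line of outbred hsd:ICR mice that had been selected for high maternal aggression, so both groups carry that background. The virgin mice were in estrus or diestrus, and which of them was in which stage is not given. RNA of each mouse was put on 1 Affymetrix mouse gene array, without pooling. The study describes the whole septum, whereas the labels name its lateral part. The comparison asks which genes differ in the maternal septum.

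Catecholamines are built from tyrosine. Tyrosine hydroxylase (Th) makes L-DOPA, which is the rate-limiting step, and DOPA decarboxylase (Ddc) turns it into dopamine. Dopamine is packed into vesicles, where dopamine beta-hydroxylase (Dbh) makes noradrenaline of it. From noradrenaline, phenylethanolamine N-methyltransferase (Pnmt) makes adrenaline. The septum is known to receive catecholamine fibers from the brainstem and midbrain, where the cell bodies of those fibers and most of their mRNA lie. In a tissue with many cell types, fewer cells of a type and less RNA per cell cannot be told apart.

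The letters before the start of Th and Ddc are shown because the results turn on these neighbouring steps of the pathway. The sequences are those of RefSeq on the mouse build GRCm38.p6, read 5′ to 3′ on the strand of the gene, and each ends at the base before the annotated start. The first is Th at chr7:142899996-142900245, minus strand, and the others are the 2 annotated starts of Ddc at chr11:11898145-11898394 and chr11:11890409-11890658, both on the minus strand. Capitals mark 3 motifs that were searched on both strands and do not overlap here: the cAMP response element TGACGTCA, the GC box GGGCGG and the TATA box TATAAA.
Th: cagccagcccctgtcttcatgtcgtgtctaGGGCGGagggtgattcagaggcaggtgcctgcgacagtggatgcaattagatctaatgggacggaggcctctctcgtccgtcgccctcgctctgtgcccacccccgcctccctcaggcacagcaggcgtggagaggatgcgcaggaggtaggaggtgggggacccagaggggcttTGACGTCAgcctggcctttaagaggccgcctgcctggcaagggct
Ddc upstream start: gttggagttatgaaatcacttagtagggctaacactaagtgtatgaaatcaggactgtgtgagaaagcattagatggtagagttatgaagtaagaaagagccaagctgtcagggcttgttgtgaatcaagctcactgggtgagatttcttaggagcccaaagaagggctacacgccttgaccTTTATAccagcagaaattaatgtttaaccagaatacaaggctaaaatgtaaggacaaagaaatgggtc
Ddc second start: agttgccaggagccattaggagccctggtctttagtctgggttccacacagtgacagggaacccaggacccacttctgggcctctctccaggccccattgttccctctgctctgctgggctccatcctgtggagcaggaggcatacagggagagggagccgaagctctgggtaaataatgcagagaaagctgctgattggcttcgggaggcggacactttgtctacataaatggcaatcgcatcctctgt
The Th sequence held the cAMP response element from 45 to 38 bases before the start and a GC box from 220 to 215 bases before it. The upstream Ddc start had the TATA box letters on the opposite strand, from 68 to 63 bases before the start, and the second Ddc start had no match. Of 32851 annotated mouse promoters of this length, 1.55% held the cAMP response element, 12.4% the TATA box and 32.7% the GC box, so only the first of these was rare. A match of letters is a description and not a site in use.

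The median intensity of an array was 319.6 to 339, and log2 values correlated between arrays at 0.987 or above. Differences were tested with limma on log2(intensity + 16) over all clusters. At an unadjusted p under 0.05, limma called 7.95% of clusters, with 3.26% higher and 4.69% lower in lactating mice. After Benjamini-Hochberg adjustment, 0% were called, and the smallest adjusted p was 0.0715. Of 7 lateral septum markers, 0 passed the unadjusted cutoff, and their summed intensity was 18455 to 20809.7 in lactating and 17933 to 21129.8 in virgin mice. Lactating mouse 4 stood apart in its levels of some neuronal markers, for reasons that were not tested. It had the highest mean level over 4 measured markers of excitatory cortical and hippocampal neurons, a mean log2 deviation of 1.76. This did not hold for each marker, since Neurod2 was highest in a virgin mouse (1703, against at most 1638 in lactating mice). Lactating mouse 4 also had the lowest mean level over 5 measured striatal markers (-0.46). At the unadjusted cutoff, 2 of 6 microglial markers (Cx3cr1 and P2ry12) and 1 of 4 ependymal markers (Ccdc153) were lower in lactating mice. Of 5 choroid plexus markers, 1 (Clic6) was higher, and 0 passed in the other lists of cell markers. Virgin mouse 6 stood apart in its microglial marker level, a mean log2 deviation of 0.35. The next highest was 0.021 in lactating mouse 5.

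None of the measured adrenergic receptor and catecholamine enzyme genes passed the test of lactating against virgin mice. The count was 0 of 5 in either direction, beside the 7.95% of all clusters, and a p that misses the cutoff does not show that levels were equal. Their median log2 difference, lactating minus virgin, was 0.0082, and that of all clusters was -0.0093. The median size of the difference without its sign was 0.060 for the 5 genes and 0.057 for all clusters. Their clusters were brighter than 95.3% to 99.8% of the 1210 clusters of olfactory and vomeronasal receptor genes, which the brain is not known to use widely and which serve here as a guide to background. The groups overlapped for each of the 5 genes, as they did for all but 0.394% of all clusters.

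**Figure D1:**
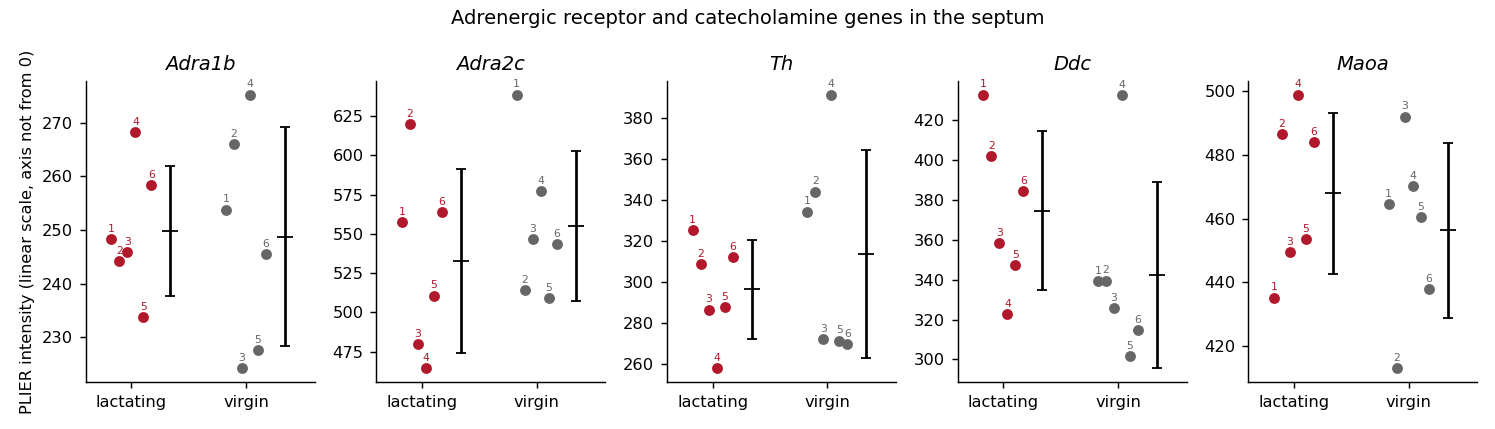
PLIER intensity (linear scale, axes not from 0) of the 5 genes in each mouse, with lactating mice in red on the left and virgin mice in grey on the right; numbers are mouse numbers and bars are the mean and SD of 6 mice. The groups overlap in every panel, and virgin mouse 4 is the highest virgin mouse for Adra1b, Th and Ddc.

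Th, which sets the pace of catecholamine synthesis, lies on chromosome 7 from 142892779 to 142899995 (GRCm38.p6). Its intensity had a lowest value of 258, a median of 298 and a highest value of 325 in lactating mice, against 269.7, 303 and 391 in virgin mice. The lactating values spanned a narrower range, with a coefficient of variation of 8.11%, against 16.1% in virgin mice, and the lowest of them lay below every virgin value. The difference in spread was not tested. The means were 297 ± 24.1 in lactating and 314 ± 50.7 in virgin mice (SD, n = 6 each). The log2 difference was -0.068 with an SE of 0.092 (limma p = 0.472, adjusted p = 0.807, exact permutation p = 0.519). The 95% interval of the difference, on the scale of intensity + 16 as for all such intervals, reached from -16.9% to 9.50% in lactating relative to virgin mice.

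Ddc, the next enzyme of the pathway and also the one that makes serotonin, lies on chromosome 11 from 11814101 to 11898144. Its intensity was 323 at the lowest, 371 at the median and 433 at the highest in lactating mice, against 301, 332 and 433 in virgin mice. Of the virgin mice, 5 lay at or below 339.5 units, and virgin mouse 4 was as high as the highest lactating mouse. The means were 375 ± 39.9 in lactating and 342 ± 46.7 in virgin mice (SD, n = 6 each), a log2 difference of 0.13 with an SE of 0.087 (limma p = 0.163, adjusted p = 0.667, exact permutation p = 0.190). The interval ran from -4.01% to 24.4%. Of the fits that left out 1 array, Ddc passed only in that without virgin mouse 4. There limma gave a log2 difference of 0.19 at an unadjusted p of 0.0153. With the level of excitatory cortical and hippocampal markers as a covariate it was 0.19 at 0.0277. Ddc did not pass in the fit with all mice and no covariate, and that covariate was chosen after the data were seen.

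Maoa, an enzyme of the outer mitochondrial membrane that breaks down noradrenaline and serotonin, lies on the X chromosome from 16619698 to 16687812. Its intensity was 435, 469 and 499 at the lowest, median and highest in lactating mice, against 413, 462 and 492 in virgin mice. The ranges overlapped over most of their length. The means of 468 ± 25.2 in lactating and 456 ± 27.5 in virgin mice (SD, n = 6 each) gave a log2 difference of 0.036 with an SE of 0.049 (limma p = 0.477, adjusted p = 0.809, exact permutation p = 0.457). Its 95% interval ran from -4.71% to 10.2%.

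Adra1b encodes the alpha-1B receptor, which couples to Gq proteins and phospholipase C, and lies on chromosome 11 from 43774605 to 43901250. Its intensity was 234 at the lowest, 247 at the median and 268 at the highest in lactating mice, against 224, 249.7 and 275 in virgin mice. The lactating range fell inside the virgin one. The means were 249.8 ± 12.0 in lactating and 249 ± 20.4 in virgin mice (SD, n = 6 each), and the log2 difference was 0.0082 with an SE of 0.053 (limma p = 0.880, adjusted p = 0.964, exact permutation p = 0.872). Its interval spanned -7.16% to 8.94%.

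Adra2c encodes the alpha-2C receptor, which couples to Gi proteins and restrains adenylyl cyclase, and lies on chromosome 5 from 35278566 to 35281763. Its intensity was 464, 534 and 620 at the lowest, median and highest in lactating mice, against 509, 545 and 639 in virgin mice. Lactating mice 3 and 4 lay below every virgin mouse, while the other lactating mice lay within the virgin range. The means were 533 ± 58.6 in lactating and 555 ± 47.9 in virgin mice (SD, n = 6 each), and the log2 difference was -0.060 with an SE of 0.074 (limma p = 0.435, adjusted p = 0.789, exact permutation p = 0.463). The interval ran from -14.2% to 7.24%.

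**Figure D2:**
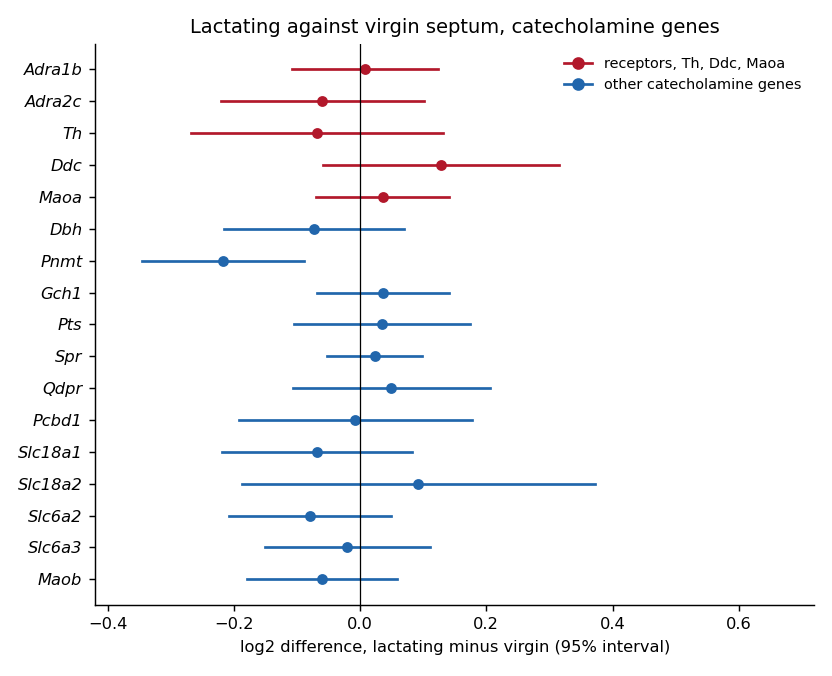
Log2 difference of lactating minus virgin mice with its 95% interval from limma, for the 5 genes (red) and 12 other genes of catecholamine synthesis, storage, uptake and breakdown (blue). The intervals cross 0 for every gene except Pnmt, which lies at -0.22.

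Within a mouse, the level of Ddc relative to Th separated the groups, although neither gene did so by itself. The log2 ratio of Ddc to Th was 0.39, 0.36, 0.31, 0.31, 0.26 and 0.29 in lactating mice 1 to 6, against 0.019, -0.019, 0.25, 0.14, 0.14 and 0.21 in virgin mice 1 to 6. Every lactating mouse lay above every virgin mouse, and the closest pair were lactating mouse 5 and virgin mouse 3. The means were 0.32 ± 0.050 in lactating and 0.12 ± 0.10 in virgin mice (SD, n = 6 each), a difference of 0.20. The ratio compares the mice with each other and not the amounts of the transcripts, since probes of different genes differ in brightness.

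This ratio was 1 of 10 that the 5 genes allow, and it was picked after its values were seen, so it is given as a description with no test. It was the only one of the 10 whose groups did not overlap. As background, the ratio of Ddc to each of the other 35555 clusters separated the groups for 0.113% of them, and that of Th for 0.0197%. These clusters were taken whatever their correlation with Ddc or Th, whereas Th and Ddc correlated at 0.96 in lactating and 0.88 in virgin mice. The shares therefore do not measure how rare the separation by this ratio is. Single clusters separated the groups without overlap in 0.394% of cases. The difference was 0.17 to 0.22 when each array was left out in turn, 0.20 without virgin mouse 4, and 0.19 after quantile normalization or cyclic loess.

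Of the 10 pairs of these genes, Th and Ddc were the most closely related from mouse to mouse. Over the 12 mice their log2 values correlated with a Pearson r of 0.71 (permutation p = 0.0102, adjusted over 10 pairs 0.102) and a Spearman rho of 0.69 (permutation p = 0.0152, adjusted 0.129), so the relation did not pass after adjustment. Within the groups r was 0.96 in lactating and 0.88 in virgin mice, on 6 mice each. Without the 2 mice farthest from the median Th level (virgin mice 4 and 2) it was 0.73, and without virgin mouse 4 alone it was 0.58 (permutation p = 0.0631). In the plot of Ddc against Th the lactating mice lie above the virgin mice at like Th levels.

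The other pairs were weaker, with r from -0.28 to 0.59. Adra1b and Th had an r of 0.59 over all mice, with -0.36 in lactating and 0.91 in virgin mice, and it fell to 0.31 without virgin mice 4 and 3. Maoa had an r between -0.28 and 0.14 with each of the others. None of the 10 pairs passed after adjustment.

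**Figure D3:**
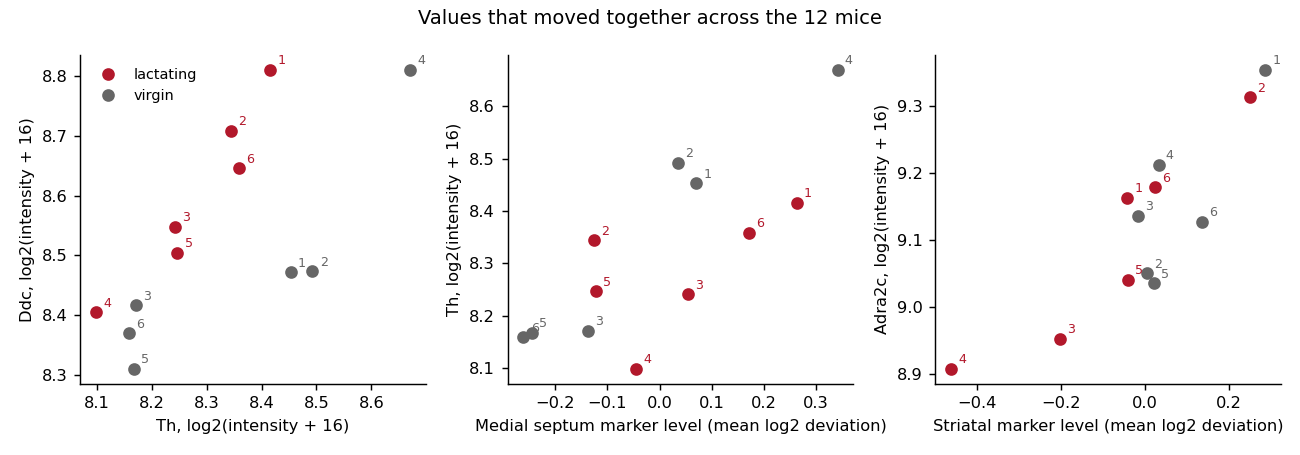
Values across the 12 mice, lactating in red and virgin in grey with mouse numbers: Ddc against Th, Th against the level of medial septum markers, and Adra2c against the level of striatal markers (gene axes in log2(intensity + 16), marker axes as mean log2 deviation from the mean of all mice). Adra2c follows the striatal markers with an r of 0.87, and lactating mouse 4 and virgin mouse 1 are the extremes.

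The level of Adra2c followed the listed markers of striatal neurons. Their r over the 12 mice was 0.87 (permutation p = 0.00024, adjusted over 65 relations of genes with marker lists 0.0156), and rho was 0.78 (permutation p = 0.00444, adjusted 0.134). The rank relation did not pass after adjustment. The r was 0.93 in lactating mice, 0.79 in virgin mice and 0.78 without lactating mouse 4 and virgin mouse 1, the 2 farthest from the median. The summed striatal marker intensity was 15938 to 24715 in lactating and 21039 to 25273 in virgin mice, with 0 of 5 measured markers past the cutoff. With the striatal level as a covariate, the log2 difference of Adra2c was 0.040, against -0.060 without it. Its sign turned, and limma called the difference in neither fit. The list includes Penk, the preproenkephalin gene, and the study names enkephalin among the transmitters of lateral septum neurons. Whether the relation comes from striatal or from septal cells was not tested.

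Th and Ddc were also set against markers of medial septum neurons, which are cholinergic or hold parvalbumin. The r was 0.78 for Th and 0.79 for Ddc, neither past the cutoff after adjustment, each with an adjusted permutation p of 0.0592 over the 65 relations. For Th it was 0.56 in lactating and 0.97 in virgin mice, and for Ddc it was 0.57 in lactating and 0.94 in virgin mice. Without the 2 farthest mice it was 0.70 for Th and 0.54 for Ddc. Medial septum markers were not the only ones related to Th and Ddc. With astrocyte markers the r was -0.71 for Th (adjusted permutation p = 0.116) and -0.58 for Ddc (0.37). For Th this r was -0.62 in lactating and -0.85 in virgin mice. With excitatory markers the r was -0.60 for Th (adjusted permutation p = 0.35) and -0.43 for Ddc (0.66). Virgin mouse 4, the highest in Th, also had the highest medial septum marker level, a log2 deviation of 0.34. The summed intensity of these 4 measured markers was 1859 to 2484 in lactating and 1693 to 2596 in virgin mice, and 0 of them passed the cutoff. With the medial septum level as a covariate, added after the data were seen, the log2 difference of Th was -0.12 at an unadjusted p of 0.0607 in limma and that of Ddc 0.085 at 0.175. Th was -0.015 with the striatal and -0.0090 with the excitatory covariate, so the size of its difference depended on which marker level was included, and it passed in none of these fits. Ddc was 0.18 with the striatal covariate, at an unadjusted p of 0.0727. Adra1b had its highest r with endothelial markers, 0.76 (adjusted permutation p = 0.0683).

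Markers of noradrenergic neurons lay within the range of the olfactory and vomeronasal receptor clusters. Of 3 measured noradrenergic markers 0 passed the cutoff, and of 6 dopaminergic markers 0 passed. The log2 difference was negative for all 3 noradrenergic markers, -0.073 for Dbh, -0.079 for Slc6a2 and -0.17 for Phox2a, a transcription factor of these neurons, with a median of -0.079 beside -0.0093 for all clusters. Clusters as dim as these 3 markers had a median of -0.051. Phox2a averaged 91.3 ± 13.7 in lactating and 103.8 ± 10.4 in virgin mice (SD, n = 6 each) and was brighter than 56.5% of the olfactory and vomeronasal receptor clusters. The summed intensity of the noradrenergic markers was 293 to 342 in lactating and 338 to 370 in virgin mice. That of the dopaminergic markers was 1748 to 2087 in lactating and 1723 to 2119 in virgin mice. Dbh, the defining enzyme of noradrenergic cells, averaged 111 ± 10.1 in lactating and 117 ± 11.1 in virgin mice (SD, n = 6 each), which was brighter than only 66.7% of the olfactory and vomeronasal receptor clusters. Slc6a2, the noradrenaline transporter, averaged 117 ± 12.0 in lactating and 124 ± 7.02 in virgin mice and was brighter than 69.5% of them.

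Of the other 12 measured genes of catecholamine synthesis, storage, uptake and breakdown, 0 were higher and 1 was lower in lactating mice, a share close to the 7.95% of all clusters that were called, so the count sets the list apart in no way. The gene was Pnmt. Its intensity was 104, 129.8 and 132 at the lowest, median and highest in lactating mice, against 134.5, 145 and 160.1 in virgin mice. Every lactating mouse lay below every virgin mouse, which held for 0.394% of all clusters in one direction or the other. The means were 123 ± 11.8 in lactating and 146 ± 8.43 in virgin mice (SD, n = 6 each), a log2 difference of -0.22 with an SE of 0.059 (limma p = 0.00282, adjusted p = 0.619, exact permutation p = 0.00216, the smallest that 6 against 6 mice can give). The cluster is dim. It was brighter than 76.9% of the olfactory and vomeronasal receptor clusters, and clusters of like brightness had a median log2 difference of -0.055, with 9.42% of them called. Under the alternatives that kept this cluster its difference stayed between -0.24 and -0.16 and limma's unadjusted p stayed below the cutoff. The markers of noradrenergic neurons described above also had negative differences, none past the cutoff, and so had the median of clusters as dim as those markers. The part of these markers in the Pnmt difference was not tested.

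None of the other genes of this list passed the cutoff. Slc18a2, the vesicular monoamine transporter of neurons, averaged 544 ± 61.7 in lactating and 516 ± 106 in virgin mice, a log2 difference of 0.092 with an SE of 0.13, and its values were spread widely in both groups. Maob, the monoamine oxidase that prefers phenylethylamine, averaged 1157 ± 64.6 in lactating and 1209 ± 92.5 in virgin mice, a log2 difference of -0.061 with an SE of 0.055. Gch1, Pts and Spr, which make the tetrahydrobiopterin that tyrosine hydroxylase needs, had log2 differences of 0.037, 0.034 and 0.023, none past the cutoff.

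**Figure D4:**
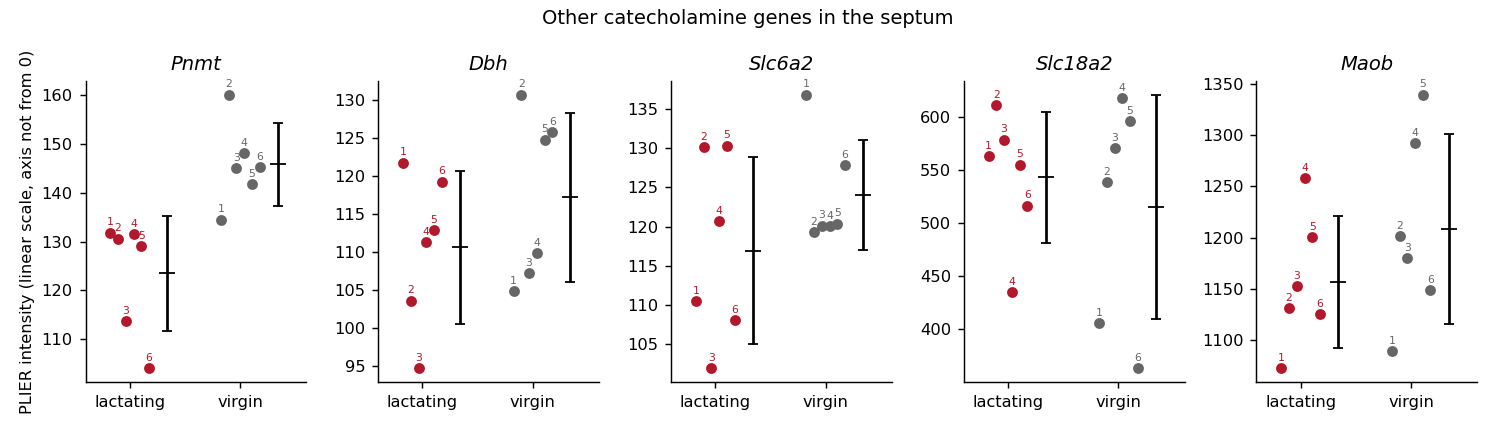
PLIER intensity (linear scale, axes not from 0) of Pnmt, Dbh, Slc6a2, Slc18a2 and Maob in each mouse, lactating in red on the left and virgin in grey on the right, with mean and SD of 6 mice. The 6 lactating mice lie at 104 to 132 for Pnmt, below all virgin mice, and the groups overlap in the other panels.

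Downstream of the receptors, 32 of 35 listed genes of coupling, second messengers and desensitization were measured, and 0 were higher and 1 was lower in lactating mice. That is a smaller share than the 4.69% of all clusters that were lower, and is not a result about the list. Plcb2, a phospholipase C that G proteins activate, averaged 207 ± 13.9 in lactating and 235 ± 29.0 in virgin mice (SD, n = 6 each). Its range was 196 to 226 in lactating and 211 to 287 in virgin mice, so the groups overlapped, and the log2 difference of -0.16 had a limma p of 0.0379 (adjusted p = 0.623, exact permutation p = 0.0368). This call was lost in 7 of 13 other settings, which were linear intensities, quantile normalization, cyclic loess, array weights, the replicate block (an unadjusted p of 0.0517 in limma) and the striatal and medial septum covariates. It was also lost in 7 of 12 fits that left out an array, those without lactating mouse 1, 3, 4 or 6 and without virgin mouse 1, 2 or 6. The genes that carry the signal of Adra1b, Gnaq and Gna11, had log2 differences of 0.042 and 0.0098, and those of the Gi family, which Adra2c uses, had 0.023 (Gnai1), -0.036 (Gnai2), 0.049 (Gnai3), -0.00091 (Gnao1) and 0.044 (Gnaz). None of these passed the cutoff. The median of the list was 0.032.

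The clusters whose log2 values followed each gene most closely over the 12 arrays, after each group's mean was removed, are given as a description, since the highest of many correlations is large in any case. Th was followed by Arhgap24 (r = 0.95), Pold3 (0.92) and Zfp358 (0.90). Ddc was followed by Ankrd6 (0.92), Cbln4 (0.90) and Cux1 (0.89). For Maoa they were Dhrs7 (0.92), Cdc40 (0.91) and Jmjd8 (0.90). For Adra1b they were Creb3l1 (0.92), Slc41a3 (0.91) and Zdhhc22 (0.91), and for Adra2c they were Cacna2d3 (0.93), Foxo1 (0.93) and Dtnb (0.92). No gene was among the closest followers of more than 1 of the 5.

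**Figure D5:**
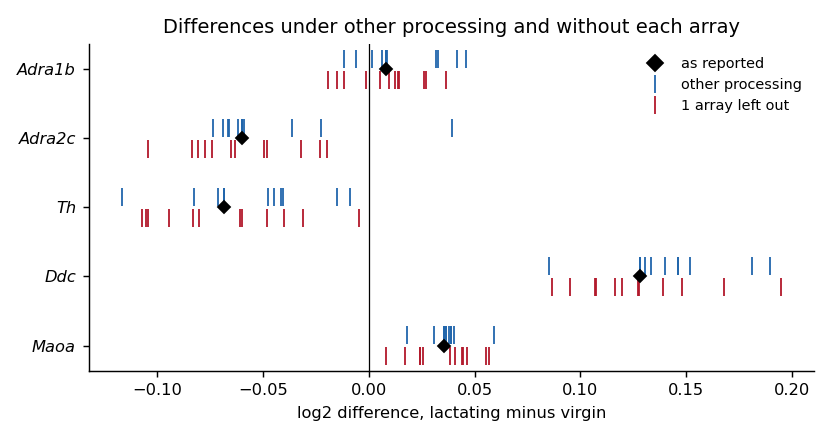
Log2 difference, lactating minus virgin, of each gene as reported (black), under other processing (blue) and with 1 array left out (red). Ddc and Maoa stay above 0 and Th stays below 0 throughout, whereas Adra1b lies on both sides of 0 and Adra2c crosses it in 1 setting.

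Under other processing and with single arrays left out, Th stayed between -0.12 and -0.0045, Ddc between 0.085 and 0.19 and Maoa between 0.0083 and 0.059 on the log2 scale. Adra2c was between -0.10 and -0.020 apart from the fit with the striatal covariate. For Adra1b the direction is not set by these data, with values from -0.019 to 0.046.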

How the data were processed

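RNA of 12 mice was measured on 1 array each, and the groups come from the labels. The authors summarised probe intensity into transcript clusters and normalized it by PLIER, with the background estimated from probes of like GC content. They used Affymetrix Power Tools (version 1.12.0) and deposited intensity values on a linear scale. From the deposited intensities, log2(intensity + 16) was fitted with limma 3.58.1 in R 4.3.3 (lmFit, eBayes, two-sided, Benjamini-Hochberg over 35556 clusters, no filter) by a script checked on simulated data. The mean was below the added 16 for 496 clusters, whose differences are compressed. An exact permutation test over 924 assignments was added for single genes, and correlations had 100000 permutations. Which mice were extracted together is not given in the sources used here. The number of arrays limits the precision.

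The genes, lists and tests were chosen with earlier results of these data known. Named are the 5 genes found, Dbh, Slc6a2, Slc18a2 and Maob, every listed gene past an unadjusted p under 0.05, markers past that cutoff, and the 3 clusters closest to each gene by within-group correlation. Gch1, Pts, Spr, Gnaq, Gna11, Gnai1, Gnai2, Gnai3, Gnao1, Gnaz and Phox2a were named outside this rule, after their values were seen. Correlations were planned for more pairs and cover 10, because 5 genes were found. Of 51 related genes, 44 were measured. The alternatives changed the scale, the added value (1), the clusters kept, the normalization (quantile, median or cyclic loess), the variance model, the weights of arrays, the block by replicate number and the choice of clusters per gene, or left out each array in turn. The 3 marker covariates, the ratios and their repeats were added after the data were seen. Positions are those of RefSeq, since the build of the array annotation is not given in the sources used here.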

Additional observations from a re-analysis of the deposited data

Results flagged for a closer look

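The Ddc intensity of virgin mouse 4, 433, lay far from the other virgin mice: its gap to the next mouse was 0.710 of the range of the virgin group, above Dixon's critical value for 6 samples at the 95% level. This was 1 of 22 groups looked at, and chance sets apart about 1 in 20 groups. The same mouse had the highest Th intensity, 391, and the highest medial septum marker level of the 12 mice, 0.34 on the log2 scale.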

How the results depend on the processing

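The count of 0 of 5 genes at an unadjusted p under 0.05 was 1 with excitatory markers as a covariate (Ddc) and 0 to 1 when each array was left out. Adra1b, at 0.0082, reversed to -0.0059 with striatal and -0.012 with medial septum markers as a covariate and ranged from -0.019 to 0.036 when an array was left out, and Adra2c reversed to 0.040 with the striatal covariate. The count of 2 related genes was 0 among clusters above the median intensity, which leave out Pnmt and Plcb2, 1 with quantile normalization, cyclic loess, array weights and the striatal or medial septum covariate, and 1 to 4 with an array left out. It was also 2 on linear intensities, but of Pnmt lower and Prkar1a higher. The cause of the changes in the other settings was not tested. The count of 2828 clusters (1160 higher, 1668 lower) was 1643 above the median intensity, where fewer clusters were tested, 1818 with the striatal covariate, and 1864 (without lactating mouse 3) to 4058 (without virgin mouse 3) with an array left out. Higher against lower was 1569 to 1274 on linear intensities, 1300 to 1191 after quantile normalization, 2027 to 992 after median subtraction, 1340 to 1129 after cyclic loess and 1142 to 501 above the median intensity. For 2 of 6 replicate numbers the residuals of both mice correlated above 0.1, at most at 0.25. This does not settle whether the numbers mark extraction pairs, and they were not taken as pairs in the main fit. As an alternative, the replicate block gave 0 of 5 genes, 2 related genes (Adcy8 higher, Pnmt lower) and 3194 clusters. With 6 mice a group, the intervals leave room for changes of up to 24.4% (Ddc).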
